A study of Homo sapiens with 96 samples.

Results

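Long retained introns (RI) are introns of more than 1000 nt that remain in a share of the poly(A)-RNA of a gene while the rest of its transcripts have them spliced out. They were taken from the RI events of 8 splicing tables by their length alone, and 680 of 4928 RI, in 567 genes, exceeded 1000 nt. The study treated A549 cells, an established human lung adenocarcinoma line, with inhibitors of protein arginine methyltransferases (PRMTs) and asked how RI respond. GSK591 inhibits PRMT5, which makes symmetric dimethylarginine, and MS023 inhibits the Type I PRMTs, which make asymmetric dimethylarginine. The 30 libraries of poly(A)-RNA fell into 10 groups of 3. Cells received 1 µM GSK591 for 2, 4, or 7 days, 1 µM MS023 for 2, 4, or 7 days, 1 µM of each for 2 or 4 days (co-treatment), or 0.01% DMSO for 4 or 7 days. The 2-day and 4-day inhibitor groups were both set against DMSO of 4 days, so that time in culture and inhibitor cannot be told apart at 2 days, and the comparisons up to 4 days share their 3 control libraries. The 7-day inhibitor groups were taken to be set against DMSO of 7 days, which was inferred from the labels. All groups are 1 cell line in bulk, so a Ψ of 0.5 can stand for retention in every cell or for full retention in a part of them, and fewer cells of a type and less RNA per cell cannot be told apart. The labels do not say whether the 3 libraries of a group came from separate cultures, and p-values then measure the spread between these libraries, which may be technical.

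A retained intron usually keeps its transcript in the nucleus, either because splicing is still going on after the transcript was cleaved and polyadenylated or because the intron is detained until a signal releases it. Short, GC-rich introns with weak splice sites are the ones most often found retained in mammalian cells, whereas in long introns the exons on both sides are thought to be recognised first. PRMT5 methylates Sm proteins, which form the core of the spliceosomal snRNPs, and both classes of enzyme methylate RNA-binding proteins with arginine and glycine repeats.

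The long RI had a median length of 1584 nt and ranged from 1001 to 6345 nt. NUP62, KLHDC4, SLC25A37, CAPRIN2, and FAM219B were among the genes with the most, with 4 each, 91 genes had at least 2, and 160 long RI overlapped another long RI and so share reads with it. On the GRCh37 (hg19) annotation 78.8% matched an annotated intron, compared with 90.4% of all RI, and 96.8% began with GT and ended with AG. A larger share of long RI than of RI as a whole enclosed other transcript parts. An annotated exon lay inside 51.6% of them, compared with 18.2% of all RI, a transcript end inside 45.6% compared with 25.3%, and the segment of another splicing event of the same tables inside 46.9% compared with 27.5%. In RI of 301 to 1000 nt these shares were 28.8%, 34.8%, and 39%. Reads from such an exon or transcript end count as intron reads in these tables, so retention of the whole intron and use of the inner exon or end cannot be told apart there. Introns were numbered along a transcript that holds them, the canonical transcript of the gene where possible. The last intron of that transcript made up 19.6% of annotated long RI and 12% of all annotated RI. Their median GC content was 47.6%, compared with 57.4% for all RI. Splice-site scores were summed over 9 bases at the 5′ end (3 of the exon and 6 of the intron) and 23 bases at the 3′ end (20 of the intron and 3 of the exon), as the log2 ratio of each base's frequency in 384516 annotated introns to equal use of the 4 bases. The median score was 7.67 at the 5′ ends of long RI and 7.25 in all RI, and 8.64 and 7.21 at the 3′ ends. In RI of 100 nt or less it was 7.7 at the 5′ ends and 6.81 at the 3′ ends.

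The ends of 10 long RI on which the results below turn are shown first, read from GRCh37 on the strand of the gene. The 5′ end runs from 6 bases of exon into 24 bases of intron, with the first intron bases GT in capitals, and the 3′ end holds 27 bases of intron and 3 of exon, with the last intron bases AG in capitals. They are introns described by library below and not a sample of those called. The first 6 were higher with GSK591 at 4 days and the last 4 lower. The score of the 5′ end was 1.70 in PIGO, 3.42 in MRPL20, 3.98 in XPNPEP1, 4.76 in DDX17, 5.10 in ECHDC2, and 8.01 in EWSR1, and 8.24 in VAMP1, 8.19 in DCTN3, 10.2 in CCNL2, and 10.2 in EXOSC9. The scores overlap between the directions, since of the named introns with the largest changes at 4 days ZNF789 (8.29), NUP62 (7.21), and WDR90 (5.00) were higher and DFFB (5.22) and SCLY (10.2) lower.
PIGO 5′ end: tctctgGTccgcatggcggggggtactgct
PIGO 3′ end: cttgtgttcctgcttctgtttctgcAGagc
MRPL20 5′ end: aggaccGTaagcgtggacccgggacacccg
MRPL20 3′ end: aagtatcttcatgttttcttatttcAGctc
XPNPEP1 5′ end: ctacgcGTaaggcatgcggaggagcatgct
XPNPEP1 3′ end: taattaatttttaattaactttgttAGgcc
DDX17 5′ end: ggctagGTttgtatagataggtgtctctgt
DDX17 3′ end: cacactgactcatcattgacgtggaAGatg
ECHDC2 5′ end: tggcagGTactgggccaggactgggggcag
ECHDC2 3′ end: aggcctcactttgttctatctgagcAGctt
EWSR1 5′ end: aatgggGTaagagcaaaccttttctccttt
EWSR1 3′ end: ccttcatttcttcgtttatccccccAGcag
VAMP1 5′ end: ttgtaaGTaagtatcgctgaagttgctggt
VAMP1 3′ end: tcccacattcccttcgtcctgcccaAGggc
DCTN3 5′ end: tagcagGTaatgctggactacatgtgtaca
DCTN3 3′ end: tccagcagtgtgtgttgtgttttacAGccg
CCNL2 5′ end: ctgaggGTaagtgactaagacttctcctct
CCNL2 3′ end: tctgattctatgaatgttcattttaAGacc
EXOSC9 5′ end: gccaagGTaggtgacactttatggcacact
EXOSC9 3′ end: tttttttaaattaataaaaaaacaaAGatg

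Each library had between 468959 and 766823 reads on long RI, out of 3148825 to 5224249 on all RI, and libraries of a group differed by 1.91 to 10.2 times the sampling variance on the long RI. The tables carry no expression of whole genes, so the cell type could be checked only through reads on splicing events. In DMSO of 4 days the epithelial keratins KRT8 and KRT18 had 389480 to 446601 and 58704 to 65679 reads and the adhesion genes CDH1 and EPCAM 485 to 539 and 17 to 32, whereas KRT19 had 0. Of the markers of other cells, COL1A1 had 28 to 76 reads, and PTPRC, CD3E, HBB, PECAM1, CDH5, VWF, DES, COL1A2, and ACTA2 had 0. A gene without a listed splicing event has 0 reads here whatever its expression. The values of 0 therefore do not show that a gene was silent or that other cells were absent.

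Retention was expressed as Ψ, the length-corrected share of reads that include the intron, from 0 (always spliced) to 1 (always retained), and ΔΨ is inhibitor minus DMSO. A test needed 10 reads in every library of a comparison. Between 518 and 540 long RI met this in the comparisons with DMSO, 451 met it in all 8, 163 in some, and 66 in none. An intron was called at an adjusted p under 0.05 in a quasi-binomial model moderated with limma, with adjustment by Benjamini-Hochberg over every RI tested in that comparison. In DMSO of 4 days, Ψ of the 451 long RI had a median of 0.17 and quartiles of 0.0322 and 0.823, compared with 0.146, 0.0419, and 0.724 over all RI. It was under 0.1 for 190 of them and over 0.9 for 79, so long RI were spread over the whole range.

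Retention of long RI was higher with GSK591 and with co-treatment for most called introns, and lower with MS023 for most. With GSK591, 106 of 518 long RI were called at 2 days (77 higher, 29 lower), 193 of 528 at 4 days (147 higher, 46 lower), and 142 of 519 at 7 days (94 higher, 48 lower). The called share was 20.5%, 36.6%, and 27.4%, beside a background over all RI of 26.4%, 38.2%, and 27.9%, so long RI were called about as often as RI in general at 4 and 7 days. By direction, 14.9%, 27.8%, and 18.1% were higher beside a background of 24%, 33.9%, and 21.8%, and 5.6%, 8.71%, and 9.25% were lower beside 2.38%, 4.32%, and 6.1%. MS023 called 38 of 539 at 2 days (13 higher, 25 lower), 54 of 534 at 4 days (22 higher, 32 lower), and 72 of 523 at 7 days (17 higher, 55 lower), or 7.05%, 10.1%, and 13.8% beside 5.65%, 7.17%, and 11.4% over all RI. Higher were 2.41%, 4.12%, and 3.25% beside 1.44%, 1.57%, and 1.93%, and lower 4.64%, 5.99%, and 10.5% beside 4.21%, 5.6%, and 9.49%. In the co-treatment 187 of 531 were called at 2 days (126 higher, 61 lower) and 216 of 540 at 4 days (155 higher, 61 lower), or 35.2% and 40% beside 34.7% and 39.7%. There 23.7% and 28.7% were higher beside 29.7% and 33.6%, and 11.5% and 11.3% lower beside 5.03% and 6.1%. The number called with MS023 moved by more than 1.5 times when 1 library was left out: at 2 days to 25 without library b and 22 without library c of MS023, at 4 days to 35 without library b of DMSO and to 30, 26, and 29 without library a, b, or c of MS023, and at 7 days to 47 without library b of MS023. Counts for GSK591 and co-treatment against DMSO stayed within that range for every library left out. With limma on the log2 odds in place of this model, GSK591 called 52 at 2 days and 72 at 7 days, co-treatment 99 at 2 days, and 0 were called with MS023 at 2, 4, and 7 days, where the main model had 117, 128, and 138 at an unadjusted p under 0.05. Leaving out long RI with an inner exon, transcript end, or other event segment kept 42.4% of 170 called with GSK591 at 4 days (59 higher, 13 lower).

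**Figure D1:**
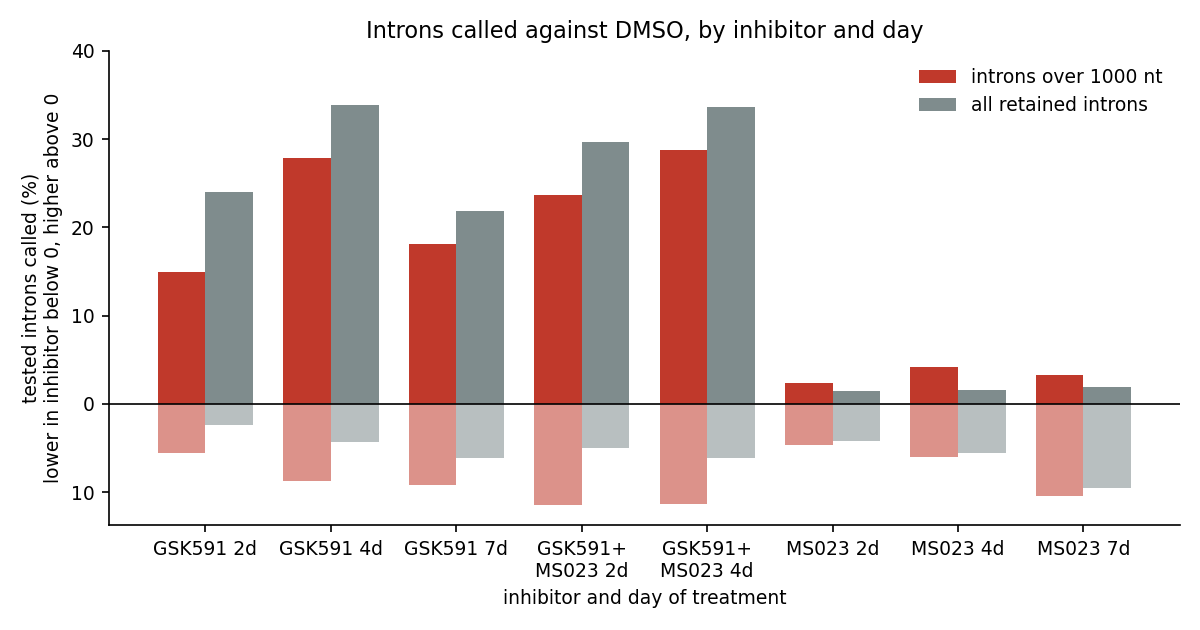
Share of tested introns called against DMSO (y axis, percent) in each inhibitor and day (x axis), higher above 0 and lower below 0, for introns over 1000 nt (red) and all RI (grey). The red bars for lower retention reach 5.6% to 11.5% with GSK591 and co-treatment, and the grey ones 2.38% to 6.1%.

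Direction and size of the changes in long RI can be set beside those of all RI and of the next shorter class, from 301 to 1000 nt. With GSK591, 72.6%, 76.2%, and 66.2% of called long RI were higher at 2, 4, and 7 days, compared with 91%, 88.7%, and 78.1% of all called RI and with 87.6%, 84.4%, and 68.2% of the shorter class, so that at 7 days the 2 classes lay close together. With MS023, 34.2%, 40.7%, and 23.6% of called long RI were higher, compared with 25.6%, 21.9%, and 16.9% of all called RI and with 22.2%, 17.5%, and 20.8% of the shorter class. In long RI with no annotated exon, transcript end, or other event segment inside, the share of calls that were higher was 88.1%, 81.9%, and 65.2% with GSK591 and 40%, 42.9%, and 12% with MS023. That was nearer to all RI than the share over every long RI with GSK591 at 2 and 4 days and with MS023 at 7 days, and not in the other 3 comparisons. The median ΔΨ over tested long RI with GSK591 was 0.0034, 0.00866, and 0.000683 at 2, 4, and 7 days, below the 0.015, 0.0196, and 0.00762 over all RI. The 7-day median ranged from 0 to 0.00246 when 1 library was left out and was -0.000143 without introns that overlap another event segment, so its direction is not settled. At 4 days it went from 0.0283 in RI of 100 nt or less and 0.0302 in those of 101 to 300 nt to 0.0118 in those of 301 to 1000 nt and 0.00866 in long RI. With MS023 the median was -0.00198, -0.00158, and -0.00227 in long RI, closer to 0 than the -0.00316, -0.00404, and -0.00596 over all RI. Without introns that overlap another event segment it turned to 0.000527, 0.000801, and 8.36e-05, with 4 higher and 3 lower calls at 2 days, 5 and 5 at 4 days, and 5 and 7 at 7 days. These shares and medians describe lists of introns and were not tested. The level over the 451 long RI can be followed by library. Their median Ψ was 0.16, 0.172, and 0.168 in libraries a, b, and c of 4-day DMSO, 0.233, 0.233, and 0.248 with GSK591, 0.153, 0.152, and 0.157 with MS023, and 0.218, 0.237, and 0.221 with both. All GSK591 and co-treatment libraries of 4 days lay above DMSO and all MS023 libraries of 4 days below it. MS023 for 2 days had a median Ψ of 0.158, 0.167, and 0.15, with library b inside the range of DMSO. With GSK591 for 2 days the median Ψ was 0.188, 0.221, and 0.215, above DMSO in each library, with library a nearest to it. Without that library 121 of 523 long RI were called at 2 days (100 higher, 21 lower), and the median ΔΨ over the 523 was 0.00596. In U2AF1 the same library, at 0.0138 beside 0.0558 and 0.0633 in the others, lay below every DMSO library. At 7 days the median Ψ over the 451 was 0.159, 0.146, and 0.155 in DMSO, 0.174, 0.186, and 0.165 with GSK591, and 0.123, 0.121, and 0.122 with MS023. The groups did not overlap, as at 4 days, and GSK591 was closer to its control than at 4 days.

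**Figure D2:**
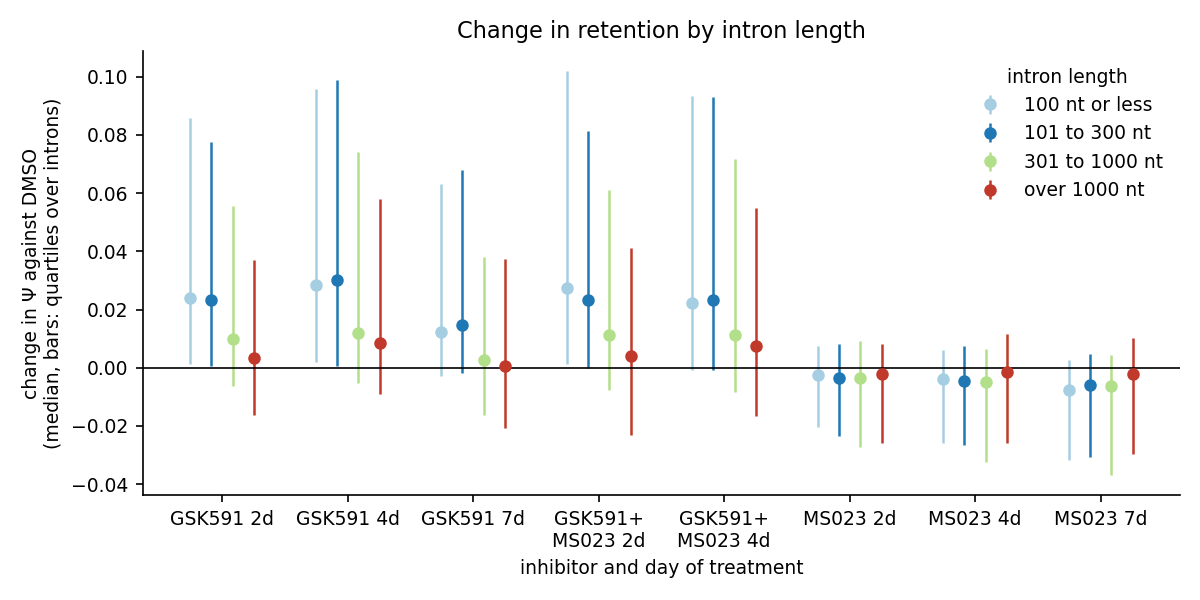
Change in Ψ against DMSO (y axis; points are medians over introns, bars the quartiles over introns) for 4 length classes in each inhibitor and day (x axis). With GSK591 and co-treatment the medians of introns over 1000 nt (red) are the lowest of the 4 classes, 0.000683 to 0.00866, and with MS023 all medians lie below 0.

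Among the introns that were higher with GSK591 and passed the rule for named introns, the 2190-nt intron 14 of XPNPEP1 (chr10:111635358-111637547, minus strand) went from little to marked retention. XPNPEP1 is an aminopeptidase that removes the residue ahead of a proline, and the intron lies between coding exons and holds an annotated transcript end. Ψ was 0.0721, 0.0732, and 0.0551 in DMSO at 4 days and 0.35, 0.523, and 0.506 with GSK591, a ΔΨ of 0.393 and a change of 3.52 ± 0.23 (SE) in log2 odds (adjusted p = 4.07e-11). Every GSK591 library lay far above every DMSO library. The same held at 2 days (0.298, 0.348, and 0.351, ΔΨ of 0.265, adjusted p = 1.62e-08) and at 7 days, where DMSO had 0.104, 0.102, and 0.0755 and GSK591 0.403, 0.371, and 0.325 (ΔΨ of 0.273, adjusted p = 9.26e-10). MS023 moved it the other way at 7 days, to 0.0279, 0.036, and 0.0361 (ΔΨ of -0.0604, adjusted p = 1.06e-07), again without overlap. At 2 days with MS023 it was 0.0423, 0.0371, and 0.0294 (adjusted p = 0.000692).

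Intron 2 of MRPL20 (chr1:1341267-1342288, minus strand, 1022 nt), a gene for a protein of the large subunit of the mitochondrial ribosome, was retained at a much lower level and changed as clearly. Its Ψ was 0.021, 0.029, and 0.0268 in DMSO at 4 days and 0.155, 0.15, and 0.16 with GSK591 (ΔΨ of 0.13, log2 odds 2.8 ± 0.11, adjusted p = 4.98e-14). At 7 days it was 0.0164, 0.0139, and 0.0162 in DMSO and 0.0661, 0.0692, and 0.0708 with GSK591 (adjusted p = 2.01e-12). With MS023 it fell to 0.0163, 0.0133, and 0.0154 at 4 days (adjusted p = 0.00259) and to 0.00838, 0.00965, and 0.0086 at 7 days (adjusted p = 0.000282). The 3 levels were separate at both times, in the order MS023, DMSO, GSK591. An annotated exon and a transcript end lie inside this intron.

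Introns of NUP62 and WDR90 changed by more than that of XPNPEP1 in Ψ at 4 days, and both overlap exons of a gene on the other strand. Whether the counting used strand is not given in the sources used here, so reads of the pair cannot be told apart. The 1477-nt first intron of NUP62 (chr19:50431106-50432582, minus strand), which lies in the 5′ UTR of this nuclear pore gene, shares 426 bases with exons of ATF5, a stress-responsive transcription factor. Its Ψ was 0.369, 0.365, and 0.347 in DMSO and 0.708, 0.895, and 0.758 with GSK591 at 4 days (ΔΨ of 0.427, adjusted p = 6.41e-07). At 7 days it was 0.174, 0.237, and 0.189 in DMSO and 0.836, 0.795, and 0.772 with GSK591 (ΔΨ of 0.601, adjusted p = 3.82e-10). No library of one group reached the other at either time. Intron 13 of WDR90 (chr16:703804-705028, plus strand, 1225 nt), a gene with WD40 repeats, shares 418 bases with ENSG00000262528. Its Ψ was 0.382, 0.552, and 0.456 in DMSO and 1, 0.88, and 0.852 with GSK591 at 4 days (ΔΨ of 0.447, adjusted p = 4.22e-05), and 0.788, 0.469, and 0.46 in DMSO and 0.94, 0.941, and 0.87 with GSK591 at 7 days (adjusted p = 0.00431). The groups did not overlap, although library a of DMSO at 7 days stood well above the other two.

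**Figure D3:**
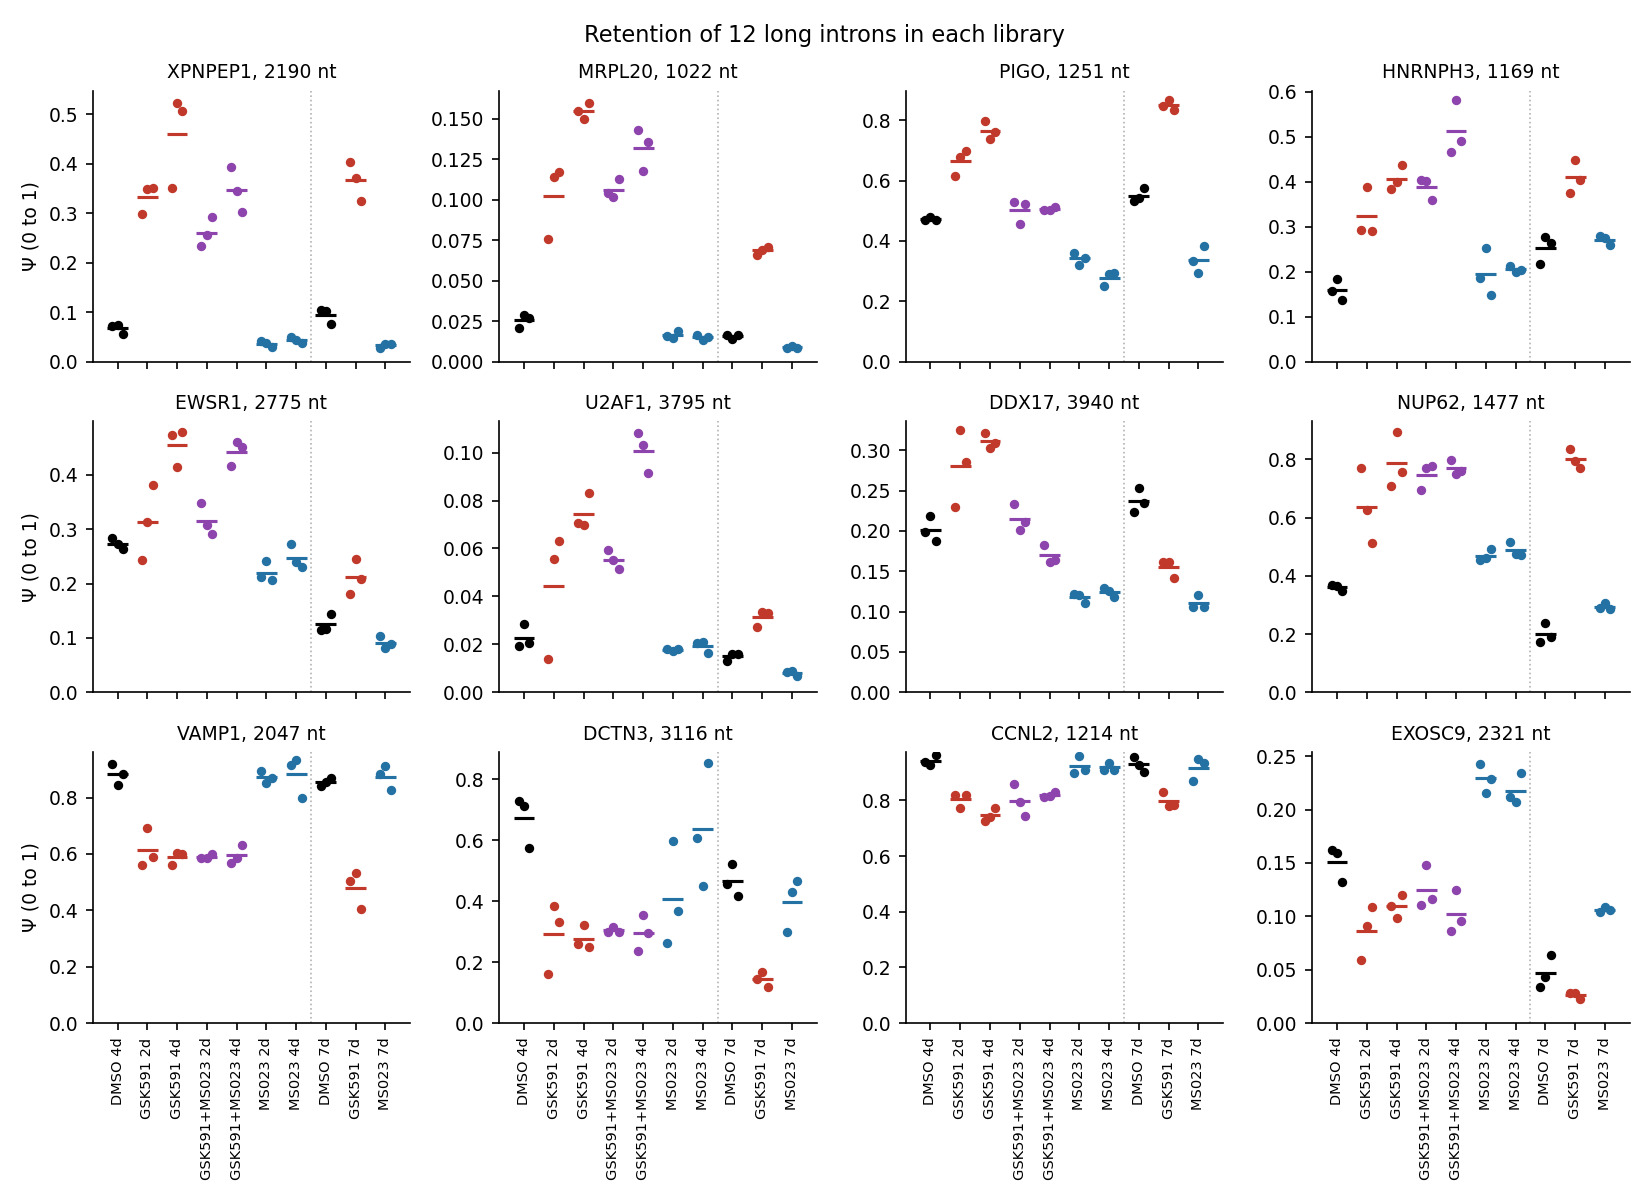
Ψ (y axis, 0 to 1, own scale in each panel) of 12 long introns in the 3 libraries (points) and their mean (bar) of each group (x axis), with DMSO in black, GSK591 in red, co-treatment in purple, and MS023 in blue, and the 7-day groups right of the dotted line. XPNPEP1 reaches 0.35 to 0.523 with GSK591 at 4 days from 0.0551 to 0.0732 in DMSO, and VAMP1 drops to 0.562 to 0.605 from 0.843 to 0.919.

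Splicing factors are the proteins and helicases that build or steer the spliceosome. Of a list of 147 such genes 29 had 36 long RI. With GSK591, 5 of 34 tested were called at 2 days (3 higher, 2 lower), 17 of 34 at 4 days (15 higher, 2 lower), and 15 of 34 at 7 days (12 higher, 3 lower), beside 26.4%, 38.2%, and 27.9% called over all RI, which puts the list below that share at 2 days and above it at 4 and 7 days. The median ΔΨ over the list was 0.00753, 0.0226, and 0.0178, compared with 0.015, 0.0196, and 0.00762 over all RI. With MS023 the counts were 8 of 34 (2 higher, 6 lower), 5 of 35 (1 higher, 4 lower), and 9 of 35 (2 higher, 7 lower), and with co-treatment 14 of 33 at 2 days (7 higher, 7 lower) and 14 of 33 at 4 days (10 higher, 4 lower), beside 5.65%, 7.17%, and 11.4% over all RI with MS023 and 34.7% and 39.7% with co-treatment. The 15 introns higher with GSK591 at 4 days belonged to CDC40, CHTOP, DDX17, DDX39B, DDX5, HNRNPH3, NKTR, RBM39, RBM5, RSRC2, and SRRM1, with 1 each, and to EWSR1 and U2AF1, with 2 each, and the 2 lower ones to C1orf63 and CIRBP. These genes were listed after their values were seen. The EWSR1 introns differ by 3 bases at 1 end and count the same reads.

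HNRNPH3, EWSR1, and U2AF1 show the pattern by library. The 1169-nt intron of HNRNPH3 (chr10:70097091-70098259, plus strand), an hnRNP that binds G-rich RNA, belongs to a noncoding transcript and holds another exon. Its Ψ was 0.158, 0.183, and 0.138 in DMSO, 0.384, 0.399, and 0.437 with GSK591 (ΔΨ of 0.247, adjusted p = 8.67e-09), and 0.466, 0.581, and 0.49 with both inhibitors at 4 days (ΔΨ of 0.352, adjusted p = 7.88e-11). MS023 alone gave 0.212, 0.199, and 0.204, which lay above DMSO without passing the test (ΔΨ of 0.0448, adjusted p = 0.108). Intron 8 of EWSR1 (chr22:29684776-29687550, plus strand, 2775 nt), an RNA-binding protein of the FET family, holds an annotated exon and a transcript end. Its Ψ was 0.284, 0.273, and 0.263 in DMSO and 0.474, 0.415, and 0.479 with GSK591 at 4 days (ΔΨ of 0.182, adjusted p = 1.69e-07). At 7 days the DMSO libraries were at 0.114, 0.117, and 0.144, well below those of 4 days, with GSK591 at 0.18, 0.246, and 0.208 (adjusted p = 1.08e-05) and MS023 at 0.104, 0.0812, and 0.0893 (adjusted p = 0.000506). Each inhibitor group was thus separate from its own control. Intron 2 of U2AF1 (chr21:44520630-44524424, minus strand, 3795 nt), whose product reads the AG of the 3′ splice site, went from 0.0191, 0.0285, and 0.0207 to 0.0705, 0.0699, and 0.0832 with GSK591 at 4 days (ΔΨ of 0.0517, adjusted p = 1.32e-10). It fell with MS023 at 7 days, from 0.0132, 0.0159, and 0.0159 to 0.00829, 0.00877, and 0.00667 (adjusted p = 9.12e-07). The intron holds the segment of another event, a pair of alternative exons being known in this gene.

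Of the long RI that were lower with GSK591, intron 4 of VAMP1, its last (chr12:6572009-6574055, minus strand, 2047 nt), was largely retained in control cells. VAMP1 is a SNARE protein of vesicle fusion, and a transcript end lies inside the intron. Its Ψ was 0.919, 0.843, and 0.885 in DMSO and 0.562, 0.605, and 0.601 with GSK591 at 4 days (ΔΨ of -0.293, log2 odds -2.3 ± 0.36, adjusted p = 6.11e-06). With co-treatment it was 0.569, 0.584, and 0.632 (adjusted p = 4.91e-06). At 7 days it was 0.841, 0.854, and 0.869 in DMSO and 0.503, 0.532, and 0.403 with GSK591 (ΔΨ of -0.376, adjusted p = 2.4e-06). All libraries with GSK591, alone or combined, lay below all DMSO libraries, and those with MS023 alone, at 0.916, 0.935, and 0.798 at 4 days, overlapped DMSO. TAPBPL lies on the other strand of this region, and no exon of it overlaps the intron.

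Intron 3 of DCTN3 (chr9:34614766-34617881, minus strand, 3116 nt), a gene for a dynactin subunit, held an inner exon, a transcript end, and another event. Ψ was 0.729, 0.713, and 0.576 in DMSO and 0.261, 0.322, and 0.248 with GSK591 at 4 days (ΔΨ of -0.396, adjusted p = 0.000614), and 0.457, 0.521, and 0.417 in DMSO and 0.145, 0.169, and 0.119 with GSK591 at 7 days (adjusted p = 4.2e-05). Both pairs of groups were separate. In CCNL2, which encodes cyclin L2, a partner of CDK11 in splicing control, intron 6 (chr1:1326956-1328169, minus strand, 1214 nt) also encloses an alternative exon. Its Ψ went from 0.938, 0.929, and 0.962 to 0.725, 0.74, and 0.773 at 4 days (ΔΨ of -0.197, adjusted p = 1.05e-06) and from 0.956, 0.929, and 0.903 to 0.829, 0.78, and 0.785 at 7 days (ΔΨ of -0.132, adjusted p = 0.000168). The GSK591 libraries were below the DMSO libraries each time. Another long RI of CCNL2 (chr1:1326246-1328058, 1813 nt) overlaps this intron and was not called with GSK591 at 4 days. Of 8 long RI tested in a list of splicing and transcription kinases and cyclins, GSK591 called 1 at 4 days (lower) and 3 at 7 days (1 higher, 2 lower), beside 38.2% and 27.9% called over all RI.

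Introns called in opposite directions can also be compared in sequence and position, which the selection by length did not use. At 4 days with GSK591, the median score of the 5′ end was 6.84 in the 147 higher, 8.77 in the 46 lower, and 7.72 in the 335 not called. The last intron of the transcript made up 4.79% of the higher, 37.8% of the lower, and 25% of the others that were annotated. An annotated exon lay inside 39.5%, 56.5%, and 53.1%. That order was not seen at 7 days, with 51.1% of the higher, 43.8% of the lower, and 50.7% of those not called. Of 87 last introns tested, 21 were called at 4 days (7 higher, 14 lower), and at 7 days 20 of 87 (3 higher, 17 lower), or 24.1% and 23% beside 36.6% and 27.4% of long RI and 38.2% and 27.9% of all RI. These shares describe the called introns and were not tested.

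With MS023 the called long RI were fewer and mostly lower. PIGO shows it most plainly. It encodes an enzyme that adds phosphoethanolamine to GPI anchors, and its intron 8 (chr9:35091289-35092539, minus strand, 1251 nt) holds no annotated exon, transcript end, or other event. In DMSO at 4 days Ψ was 0.47, 0.478, and 0.468. With MS023 it was 0.249, 0.29, and 0.295 (ΔΨ of -0.194, log2 odds -1.23 ± 0.12, adjusted p = 2.27e-06) and with GSK591 0.797, 0.738, and 0.761 (ΔΨ of 0.293, log2 odds 1.86 ± 0.16, adjusted p = 4.19e-09). The 2 inhibitors lay on opposite sides of the control with no overlap. At 7 days DMSO had 0.533, 0.544, and 0.574, MS023 0.335, 0.295, and 0.384 (ΔΨ of -0.212, adjusted p = 3.23e-06), and GSK591 0.848, 0.868, and 0.834 (ΔΨ of 0.3, adjusted p = 7.44e-08). Intron 5 of ECHDC2 (chr1:53370763-53372190, minus strand, 1428 nt), of a family of enoyl-CoA hydratase enzymes, likewise held nothing inside. Its Ψ was 0.455, 0.583, and 0.686 in DMSO at 4 days and 0.896, 0.842, and 1 with GSK591 (ΔΨ of 0.338, adjusted p = 0.00606). At 7 days it went from 0.49, 0.47, and 0.574 in DMSO to 0.196, 0.206, and 0.244 with MS023 (ΔΨ of -0.296, adjusted p = 1.91e-06), without overlap.

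EXOSC9, a subunit of the RNA exosome, had an intron that went the other way with each inhibitor. Ψ of intron 10 (chr4:122735203-122737523, plus strand, 2321 nt), which holds an inner exon, a transcript end, and another event, was 0.0334, 0.0435, and 0.0634 in DMSO at 7 days. It was 0.104, 0.109, and 0.106 with MS023 (ΔΨ of 0.0596, adjusted p = 1.91e-06) and 0.0277, 0.0285, and 0.023 with GSK591 (ΔΨ of -0.0204, adjusted p = 0.00245). The 3 groups were separate, and GSK591 lay close below DMSO. At 2 days ΔΨ was 0.0784 with MS023 (adjusted p = 0.00248) and -0.0648 with GSK591 (adjusted p = 0.00144), from 0.162, 0.159, and 0.132 in DMSO of 4 days. At 4 days it was 0.0667 with MS023 (adjusted p = 0.0112, and 0.073 without library c of MS023) and -0.0416 with GSK591 (adjusted p = 0.00964, and 0.0634 without library b of GSK591).

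Setting the inhibitors directly against each other left the control libraries out. GSK591 differed from MS023 in 145 of 512 long RI at 2 days (109 higher with GSK591, 36 lower), in 209 of 516 at 4 days (173 higher, 36 lower), and in 179 of 497 at 7 days (124 higher, 55 lower). These are 28.3%, 40.5%, and 36% beside 34.2%, 44.8%, and 39.4% over all RI. The share higher with GSK591 was 21.3%, 33.5%, and 24.9% beside 30.7%, 40.1%, and 32.5%, and the share lower 7.03%, 6.98%, and 11.1% beside 3.5%, 4.62%, and 6.9%. Of the called introns 75.2%, 82.8%, and 69.3% were higher with GSK591, compared with 89.8%, 89.7%, and 82.5% over all RI. The counts rest on leaving introns with reads of 1 form only out of the estimate of the prior, a choice made after seeing the data. With those introns kept they were 109 (84 higher, 25 lower), 188 (153 higher, 35 lower), and 133 (95 higher, 38 lower). The counts against DMSO rest on the same choice and were not recomputed with those introns kept. ΔΨ between the inhibitors reached 0.487 for PIGO at 4 days (log2 odds 3.09 ± 0.18, adjusted p = 3.47e-17), 0.417 for XPNPEP1 (log2 odds 4.18 ± 0.22, adjusted p = 1.3e-18), and 0.608 for ECHDC2, for which MS023 had 0.329, 0.322, and 0.263 (log2 odds 4.42 ± 0.94, adjusted p = 8.41e-08). XPNPEP1 and PIGO held the same order at 7 days, with 0.333 (adjusted p = 1.08e-28) and 0.512 (adjusted p = 2.11e-19). The last intron of PCNXL2 (chr1:233120224-233121837, minus strand, 1614 nt), a membrane protein gene, with an annotated exon inside, was the reverse case. Ψ was 0.394, 0.402, and 0.353 with GSK591 and 0.761, 0.801, and 0.852 with MS023 at 4 days (ΔΨ of -0.421, adjusted p = 5.16e-05), and 0.155, 0.261, and 0.226 and 0.681, 0.608, and 0.92 at 7 days (ΔΨ of -0.522, adjusted p = 4.57e-08). The splicing-factor list had 15 of 34 called at 2 days (11 higher with GSK591, 4 lower), 19 of 34 at 4 days (17 higher, 2 lower), and 19 of 34 at 7 days (15 higher, 4 lower), beside 34.2%, 44.8%, and 39.4% over all RI.

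**Figure D4:**
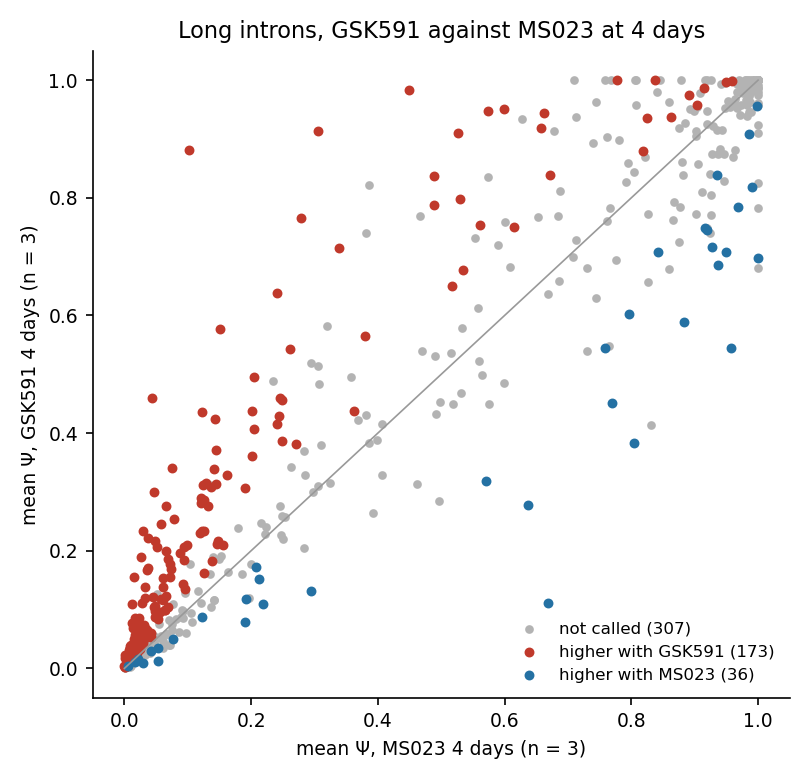
Mean Ψ of 3 libraries with GSK591 (y axis) against that with MS023 (x axis) at 4 days for the 516 tested long introns, with the diagonal marking equal values. Called introns that were higher with GSK591 (red, 173) lie above the diagonal from the lowest to the highest levels, and the 36 higher with MS023 (blue) lie below it.

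Co-treatment differed from GSK591 in fewer long RI than from MS023. Against GSK591 alone it differed in 30 of 509 long RI at 2 days (15 higher, 15 lower) and 71 of 520 at 4 days (38 higher, 33 lower), or 5.89% and 13.7% beside 3.45% and 8.92% over all RI. Higher were 2.95% and 7.31% beside 1.87% and 3.72%, and lower 2.95% and 6.35% beside 1.58% and 5.2%. Against MS023 alone it differed in 188 of 516 at 2 days (136 higher, 52 lower) and 228 of 526 at 4 days (176 higher, 52 lower), or 36.4% and 43.3% beside 39.1% and 44%, with 26.4% and 33.5% higher beside 35.1% and 39.1%, and 10.1% and 9.89% lower beside 4.04% and 4.97%. The 2-day count against GSK591 rests on single libraries, since it was 19, 7, and 15 without library a, b, or c of the co-treatment, and limma on the log2 odds called 0 against GSK591 at 2 and at 4 days. Both counts against GSK591 also rest on leaving introns of 1 form out of the estimate of the prior, a choice made after seeing the data, and with those introns kept they were 0 and 20 (5 higher, 15 lower). Against MS023 the counts were then 145 (106 higher, 39 lower) and 193 (155 higher, 38 lower). PIGO was among the introns that did differ from GSK591. With both inhibitors for 4 days its Ψ was 0.504, 0.501, and 0.511, beside DMSO at 0.47, 0.478, and 0.468 (ΔΨ of 0.0336, adjusted p = 0.26), and lay below GSK591 alone (ΔΨ of -0.26, adjusted p = 2.27e-09) and above MS023 alone (ΔΨ of 0.227, adjusted p = 1.97e-10). No co-treatment library reached either single inhibitor.

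ECHDC2 and DDX17 followed PIGO in this. ECHDC2 with both inhibitors was at 0.435, 0.478, and 0.527, below GSK591 (ΔΨ of -0.432, adjusted p = 0.000324) and above MS023 (ΔΨ of 0.176, adjusted p = 0.00179). Intron 11 of DDX17 (chr22:38884121-38888060, minus strand, 3940 nt), a DEAD-box RNA helicase, holds an annotated exon and a transcript end. It had 0.321, 0.303, and 0.309 with GSK591, 0.129, 0.126, and 0.118 with MS023, and 0.183, 0.162, and 0.164 with both. Here too the co-treatment libraries fell between those of the single inhibitors, with a ΔΨ of -0.141 against GSK591 (adjusted p = 1.12e-11) and of 0.0452 against MS023 (adjusted p = 9.64e-07).

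In other introns the change was larger with co-treatment than with GSK591 alone. The second intron of NUBP2 (chr16:1836657-1837677, plus strand, 1021 nt), in the 5′ UTR of an iron-sulfur cluster assembly factor, was lower with each inhibitor and lowest with both. Its Ψ was 0.507, 0.54, and 0.556 in DMSO, 0.285, 0.219, and 0.323 with GSK591, 0.24, 0.253, and 0.245 with MS023, and 0.161, 0.171, and 0.17 with both at 4 days. Against DMSO ΔΨ was -0.259 (adjusted p = 7.82e-06), -0.288 (adjusted p = 3.8e-06), and -0.367 (adjusted p = 4.77e-11), and co-treatment was lower than GSK591 (adjusted p = 0.000324) and than MS023 (adjusted p = 0.000463). SPSB3 lies on the other strand, and an annotated exon, a transcript end, and another event lie inside. Intron 3 of CLK3 (chr15:74912567-74914460, plus strand, 1894 nt), a kinase of SR proteins, holds a transcript end and reached 0.168, 0.241, and 0.177 with both, from 0.101, 0.0825, and 0.0894 in DMSO (ΔΨ of 0.105, adjusted p = 3.94e-06), with GSK591 alone at 0.11, 0.0973, and 0.106 and co-treatment above it (ΔΨ of 0.0911, adjusted p = 9.42e-05). U2AF1 was likewise higher with both, at 0.108, 0.103, and 0.0914, than with GSK591 (ΔΨ of 0.0261, adjusted p = 0.000212). Limma on the log2 odds did not call these differences of NUBP2, CLK3, and U2AF1 from GSK591, nor those of PIGO, ECHDC2, and DDX17. The largest drop with both was in a 5509-nt stretch of IFT27 (chr22:37154454-37159962, minus strand), an intraflagellar transport gene, which is not annotated as an intron and spans an exon. Its Ψ was 0.874, 0.953, and 0.907 in DMSO and 0.285, 0.332, and 0.359 with co-treatment for 2 days (ΔΨ of -0.586, adjusted p = 1.41e-06) and 0.377, 0.496, and 0.568 for 4 days (ΔΨ of -0.431, adjusted p = 0.000151). IFT27 was also among the named introns with the largest falls with GSK591 alone at 2 days. Its co-treatment values are not set against GSK591 alone here.

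The GSK591 comparisons of 4 and 7 days have separate control libraries, so their calls could be set beside each other. Of 146 long RI higher at 4 days among the 484 tested at both, 76 were also higher at 7 days, which is 52.1% of the first list and 80.9% of the 94 of the second. Of 46 lower at 4 days and 47 at 7 days, 24 were in both (52.2% and 51.1%), and 2 of each list were called in the opposite direction at 7 days. With MS023, 7 introns were higher at both times (31.8% of 22 and 41.2% of 17) and 23 lower (71.9% of 32 and 41.8% of 55). The shares called at both times were not computed over all RI, so they cannot be read as particular to long RI. The difference between the effects was tested by the interaction of inhibitor and day on the log odds scale. Its direction was taken from ΔΨ at 7 days minus ΔΨ at 4 days, which is another scale than that of the test. It was called for GSK591 in 38 of 484 long RI (4 with a higher effect at 7 days, 34 with a lower), or 7.85% beside 6.23% over all RI, and for MS023 in 4 of 484 (1 and 3), or 0.826% beside 0.295%. The effect of GSK591 was higher at 7 days in 0.826% beside 0.378% and lower in 7.02% beside 5.85%, and that of MS023 higher in 0.207% beside 0.0536% and lower in 0.62% beside 0.241%. The GSK591 count was 25 without library c of DMSO at 7 days, and 24 and 25 without library a or c of GSK591 at 7 days. The groups of 4 and 7 days are separate sets of libraries that differ in depth. DMSO had 624522 to 699103 reads on long RI at 4 days, of which 341919 to 399013 were inclusion reads. At 7 days it had 487881 to 501883, of which 222676 to 241958 were inclusion reads. Day of treatment and set of libraries cannot be told apart here.

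DDX17, where use of the inner exon or end cannot be told from retention, changed in opposite directions at 4 and 7 days. GSK591 brought its Ψ from 0.199, 0.219, and 0.187 in DMSO to 0.321, 0.303, and 0.309 at 4 days (ΔΨ of 0.11, adjusted p = 2.21e-07), and at 7 days from 0.223, 0.253, and 0.235 in DMSO to 0.161, 0.162, and 0.142 (ΔΨ of -0.0822, adjusted p = 1.87e-06). The GSK591 libraries were all above the control at 4 days and all below at 7 days, and the effects differed by -0.192 (adjusted p of the interaction = 5.38e-08). With MS023 the intron was lower at 2, 4, and 7 days (ΔΨ of -0.0838, -0.0771, and -0.126, adjusted p = 3.19e-11, 2.49e-07, and 4.71e-12). C1orf63, an arginine- and serine-rich protein gene, differed in the opposite sense. Its intron 3 (chr1:25570125-25571640, minus strand, 1516 nt), which holds an annotated exon, a transcript end, and another event, had 0.834, 0.87, and 0.792 in DMSO and 0.646, 0.621, and 0.542 with GSK591 at 4 days (ΔΨ of -0.229, adjusted p = 0.00126), and 0.495, 0.543, and 0.513 in DMSO and 0.601, 0.709, and 0.653 with GSK591 at 7 days (adjusted p of the interaction = 0.00141). The DMSO libraries themselves lay apart between 4 and 7 days, and the GSK591 libraries of the 2 times overlapped.

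**Figure D5:**
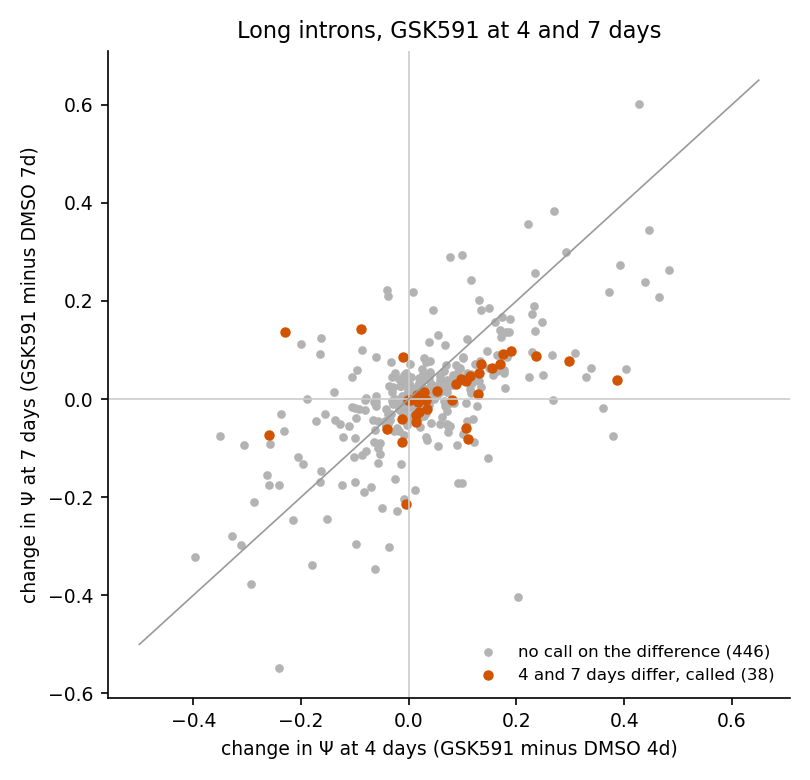
Change in Ψ with GSK591 at 7 days (y axis) against that at 4 days (x axis), each from its own DMSO libraries, for the 484 long introns tested at both, with the diagonal marking equal changes. The 38 introns whose effects differed between the times (orange) mostly lie below the diagonal, 34 of 38 having a lower effect at 7 days.

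Outside the splicing factors few long RI belonged to each gene list, and counts for GSK591 at 4 days are given for all of them. In the list of transcription and chromatin genes 3 of 11 were called (1 higher, 2 lower), and in known detained-intron and feedback genes 5 of 17 (4 higher, 1 lower). Of translation and ribosome genes 2 of 6 were called, both lower, of DNA repair genes 1 of 3 and of lysosome and trafficking genes 1 of 2, each higher, and of cell cycle genes 0 of 4. Over all RI 38.2% were called in this comparison, and no difference from that share was tested. The median ΔΨ of these lists was -0.00863, -0.00149, -0.0148, 0.00717, 0.00613, and -0.00574, compared with 0.0196 over all RI and 0.00866 over long RI. No gene of the arginine methylation list had a long RI. HEXA, the alpha chain of the lysosomal hexosaminidases, had an 1821-nt intron 3 (chr15:72646079-72647899, minus strand) with nothing inside, at 0.00688, 0.00847, and 0.00604 in DMSO and 0.0174, 0.0148, and 0.0171 with GSK591 (adjusted p = 1.74e-05). PARP1, a sensor of DNA breaks, behaved alike in its intron 17 (chr1:226553754-226555180, minus strand, 1427 nt), at 0.00485, 0.00811, and 0.00745 and then 0.0135, 0.015, and 0.0133 (adjusted p = 0.000397). In both the groups were separate while retention stayed under 0.02. Intron 23 of KDM3A (chr2:86716783-86718003, plus strand, 1221 nt), a histone H3K9 demethylase, went from 0.0245, 0.0119, and 0.011 to 0.0435, 0.0395, and 0.0623 (ΔΨ of 0.0327, adjusted p = 0.000243). Another long RI of KDM3A (chr2:86709818-86711109) was called lower with co-treatment at 2 days, at a mean Ψ of 0.0129 beside 0.0312 in DMSO. Intron 23 was called higher there, at 0.0334 beside 0.0158. The introns of HEXA, PARP1, and KDM3A given by library were all higher, and the lower calls of these lists are given here as counts only.

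The 3 longest introns tested throughout did not all move alike, since with GSK591 at 4 days NPAS2 was called and SLC22A5 was not. PLEKHA1 is given at 2 days and at a low Ψ, so it cannot be set beside them. Intron 8 of PLEKHA1 (6230 nt, chr10:124177485-124183714), a lipid-binding adaptor gene, was at 0.0094, 0.00799, and 0.00994 in DMSO of 4 days and lower with GSK591 at 2 days, at 0.00368, 0.00399, and 0.00283 (adjusted p = 0.00293). Intron 16 of NPAS2 (5701 nt, chr2:101598840-101604540), a circadian transcription factor, with an annotated exon and a transcript end inside, went from 0.0458, 0.0534, and 0.0478 to 0.139, 0.139, and 0.186 with GSK591 at 4 days (ΔΨ of 0.106, adjusted p = 5.35e-10). NPAS2 was also higher with MS023, at 0.0775, 0.0674, and 0.0719 (ΔΨ of 0.0233, adjusted p = 0.00329), and with both at 0.169, 0.182, and 0.179 (ΔΨ of 0.128, adjusted p = 1.38e-12), each group lying apart from DMSO. Intron 2 of SLC22A5 (5665 nt, chr5:131714174-131719838), a carnitine transporter, was at 0.0744, 0.109, and 0.0806 in DMSO and 0.0792, 0.0679, and 0.0899 with GSK591 at 4 days, which overlapped, and no comparison with DMSO called it.

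At the upper end, the 5 long RI most retained in DMSO of 4 days lay in C19orf54, COX4I1, NDUFA10, POT1, and TMEM168, with Ψ between 0.987 and 1 in its 3 libraries. They stayed at 0.959 to 1 with GSK591 at 4 days, and none of the comparisons with GSK591, MS023, or both called them against DMSO. Those of C19orf54, COX4I1, and NDUFA10 are not annotated introns. The introns next to the length limit are given as values only. UBE2D3 (1001 nt) had 0.00989, 0.014, and 0.0145 in DMSO and 0.0122, 0.012, and 0.0126 with GSK591 at 4 days, and U2AF1L4 (1005 nt) 0.104, 0.13, and 0.1 and 0.134, 0.12, and 0.0963. Just below the limit, NDUFAF7 (997 nt) had 0.893, 0.886, and 0.928 and 0.731, 0.924, and 1, and MIB2 (996 nt) 0.183, 0.107, and 0.191 and 0.396, 0.433, and 0.391.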

How the data were processed

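The labels give stranded poly(A) libraries read as pairs of 150 nt. The authors trimmed the reads with Trim Galore 0.6.5, aligned them to hg19 with STAR 2.4.2a, and ran rMATS for each inhibitor group against DMSO. The deposited tables hold other values beside events, namely whole-number read counts for inclusion and for skipping, packed by library and not normalised, the length of both forms, Ψ per library, and the authors' p-value, FDR, and difference, which were not used. Inclusion counts take in reads within the intron. The 26287 DMSO counts listed in several tables did not differ (0), so groups could be compared directly. Ψ was recomputed from counts and effective lengths and matched the deposited Ψ to 0.00050.

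The quasi-binomial logistic model of the 6 libraries of a pair had its dispersion moderated by squeezeVar of limma 3.58.1 in R 4.3.3, kept from dropping under 1, and was tested by F. Introns with reads of 1 form only in every library were left out of the estimate of the prior, a choice made after the prior was seen to collapse on them in the direct comparisons. The choice applied to every comparison, and its effect on the counts against DMSO was not checked. The interaction test used 12 libraries. Named introns were, per comparison, the 3 called long RI with the largest rise and fall among those with 50 reads in every library, those called in most comparisons, the most retained, the longest, at most 3 per gene list, and those at the length limit. A few genes are not reported here. The members and lists were chosen with earlier results of these data known. Annotation and sequence came from GRCh37 with Python 3.11.15. Alternatives were a read minimum of 1 or 20, counts without length correction, limma on log2 odds with 0.5 added, introns holding other events left out, and each library left out. Counts per intron set the precision of each Ψ, and intervals were not computed beyond the SE of the model.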

Additional observations from a re-analysis of the deposited data

Results flagged for a closer look

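The effect of an inhibitor on the listed introns differed between 7 and 4 days in the test of the interaction, and 12 named introns met this for GSK591 and 1 for MS023. For GSK591 the effect on DDX17 was 0.11 at 4 days and -0.0822 at 7 days, a difference of -0.192 (adjusted p = 5.38e-08, limma-moderated model), and it kept its call without any 1 of the 12 libraries. The difference for C1orf63 was 0.366 (from -0.229 to 0.137, adjusted p = 0.00141) and for NPAS2 -0.0684 (from 0.106 to 0.0375, adjusted p = 0.00703), and both kept their calls as well. For DDX5, a DEAD-box helicase related to DDX17, it was -0.0605 (from 0.0134 to -0.0471, adjusted p = 0.000358), and for NUMA1, a mitotic spindle protein, 0.097 (from -0.0109 to 0.0862, adjusted p = 0.0102), and these too were called without any 1 library.

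Other differences lost their call without single libraries. SLC25A3, the mitochondrial phosphate carrier, had -0.0103 (from 0.0149 to 0.00457, adjusted p = 0.0125, and 0.0834 without library c of DMSO at 7 days). U2AF1 had -0.0354 (from 0.0517 to 0.0163, adjusted p = 0.02), SIRT7, a deacylase, -0.0281 (from -0.0119 to -0.04, adjusted p = 0.0248), NUBP2 0.186 (from -0.259 to -0.0729, adjusted p = 0.0352), and MRPL20 -0.0763 (from 0.13 to 0.0532, adjusted p = 0.0352). CLK3 had -0.0461 (from 0.0136 to -0.0324, adjusted p = 0.0387) and KDM3A -0.0344 (from 0.0327 to -0.00168, adjusted p = 0.0414). Each of these lost its call when certain libraries were left out in turn. For U2AF1 these were a and c of DMSO 4d, c of GSK591 4d, b and c of DMSO 7d, and a of GSK591 7d (adjusted p up to 0.0788), and for SIRT7 c of GSK591 4d, c of DMSO 7d, and a and c of GSK591 7d (up to 0.147). For NUBP2 they were b and c of DMSO 4d, b of GSK591 4d, a and b of DMSO 7d, and a and b of GSK591 7d (up to 0.131), and for MRPL20 a of DMSO 4d, a and c of GSK591 4d, a and c of DMSO 7d, and all 3 of GSK591 7d (up to 0.111). For CLK3 they were b and c of DMSO 4d, a and c of GSK591 4d, b and c of DMSO 7d, and a and b of GSK591 7d (up to 0.117) and for KDM3A b and c of DMSO 4d, c of GSK591 4d, and all 3 of DMSO 7d and of GSK591 7d (up to 0.13). For MS023 the effect on NUBP2 differed by 0.199 (from -0.288 to -0.0893, adjusted p = 0.0418), with the call lost without b or c of DMSO 4d, any of MS023 4d, a or b of DMSO 7d, or any of MS023 7d, up to an adjusted p of 0.351. The cause of these differences was not tested.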

How the results depend on the processing

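A read minimum of 1 or 20 kept all 17 counts of called long RI within 1.5 times the count reported. No paired analysis was possible because the columns carry no replicate numbers. The planned count test on both forms was not run, as the counts stand packed in joined cells, and testing every listed row gave no other value, since no intron had more than 1 pair of flanking ends. Depth limits introns under 10 reads, of which 66 were never tested, and low Ψ rests on few intron reads.

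Limma on the log2 odds called 52 and 72 long RI with GSK591 at 2 and 7 days, 99 with 2-day co-treatment, 0 with MS023 at each of 2, 4, and 7 days, 93 and 119 between GSK591 and MS023 at 2 and 7 days, 121 between co-treatment and MS023 at 2 days, and 0 between co-treatment and GSK591 at 2 and 4 days. Of calls on named introns it kept 212 and lost 177. The cause was not tested. Keeping introns of 1 form in the estimate of the prior, an alternative chosen after seeing the data, left 0 and 20 calls between co-treatment and GSK591 at 2 and 4 days. It left 109, 188, and 133 between GSK591 and MS023 at 2, 4, and 7 days, and 145 and 193 between co-treatment and MS023. The interactions of GSK591 and MS023 kept 38 and 4 calls, and the comparisons with DMSO were not run this way.

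Leaving out introns that hold other events, in either of 2 ways, shrank every count, since fewer introns were tested. Without introns that overlap another event segment, the counts with GSK591 at 2, 4, and 7 days were 26 of 117, 47 of 120, and 32 of 116. With MS023 they were 7 of 121, 10 of 123, and 12 of 113, and with co-treatment 45 of 115 and 46 of 123. Between GSK591 and MS023 they were 39 of 113, 50 of 117, and 41 of 112, and between co-treatment and GSK591 10 of 113 and 11 of 118. Between co-treatment and MS023 they were 46 of 115 and 58 of 121, and for the interactions of GSK591 and MS023 6 of 111 and 0 of 109. Without introns holding an annotated exon, transcript end, or event segment, which was chosen after seeing the data, they were in the same order 42, 72, and 46, then 10, 14, and 25, 69 and 81, 55, 75, and 63, 10 and 21, 66 and 82, and 14 and 0. Against DMSO that was 25.6%, 42.4%, and 28.6% of those tested with GSK591, 6.06%, 8.28%, and 15.6% with MS023, and 41.8% and 47.1% with co-treatment. Over every long RI tested it was 20.5%, 36.6%, and 27.4%, then 7.05%, 10.1%, and 13.8%, and 35.2% and 40%.

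The median ΔΨ moved by more than the spread between libraries, or changed its sign, in some settings. Without introns overlapping other events it was 0.000527, 0.000801, and 8.36e-05 with MS023 at 2, 4, and 7 days, which is above 0 and not below it, -0.000143 with GSK591 at 7 days, which is below 0 and not above it, 0.00674 and 0.00917 with co-treatment at 2 and 4 days, 0.00394 and 0.000249 between GSK591 and MS023 at 4 and 7 days, 0.00166 and 0.000445 between co-treatment and GSK591, and 0.00559 between co-treatment and MS023 at 4 days. Without length correction at 4 days it was 0.00706 with GSK591, -0.0021 with MS023, 0.00475 with co-treatment, and -1.46e-05 between co-treatment and GSK591. With 20 reads it was 0.00659 with GSK591, -0.00015 between co-treatment and GSK591, and 0.00939 between co-treatment and MS023 at 4 days.

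Leaving out each library in turn gave 81 to 121, 162 to 174, and 110 to 125 calls with GSK591 at 2, 4, and 7 days, 22 to 43, 26 to 53, and 47 to 63 with MS023, and 147 to 166 and 179 to 197 with co-treatment. Between GSK591 and MS023 it gave 111 to 162, 189 to 200, and 148 to 163, between co-treatment and GSK591 7 to 43 and 52 to 63, and between co-treatment and MS023 156 to 174 and 192 to 218. For the interactions it gave 24 to 41 with GSK591 and 1 to 5 with MS023, with 1 call left without library b of DMSO 7d and 2 without c of DMSO 4d, a of MS023 4d, or any library of MS023 7d. The medians ranged from 0.00225 to 0.00596, 0.00577 to 0.00815, and 0 to 0.00246 with GSK591, from -0.0023 to -0.000679, -0.00219 to -0.000877, and -0.00428 to -0.000798 with MS023, and from 0.00211 to 0.00451 and 0.00633 to 0.00907 with co-treatment. Between GSK591 and MS023 they ranged from 0.00366 to 0.00814, 0.00722 to 0.00977, and 0.0015 to 0.00384, between co-treatment and GSK591 from -0.00122 to 0.000827 and -0.000127 to 0, and between co-treatment and MS023 from 0.00462 to 0.00752 and 0.0098 to 0.0125. Of calls on named introns 2072 were kept, 418 lost, and 0 reversed.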

Other observations

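Length within the long RI can be followed further. With GSK591 at 4 days the share called was 34.7% of introns of 1001 to 1500 nt, 37.6% of those of 1501 to 2000 nt, 37% of those of 2001 to 3000 nt, and 40.3% of those over 3000 nt, beside 38.2% of all RI. With MS023 it was in the same order 7.85%, 9.3%, 14.1%, and 14.1% at 4 days, beside 7.17% of all RI, and 14.5%, 14.2%, 12.9%, and 11.8% at 7 days, beside 11.4%, so the order of 4 days was not seen at 7 days. Of the last introns of transcripts, co-treatment at 4 days called 32 of 92 (14 higher, 18 lower), compared with 155 higher and 61 lower of all long RI, and MS023 at 4 days called 6 of 90 (1 higher, 5 lower), or 34.8% and 6.67% beside 39.7% and 7.17% of all RI. None of these shares was tested.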
